A study of Drosophila melanogaster with 4 samples.

Results

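The regions described here are the Ab ChIP-Seq peaks that were called in *scrib1*+*ab* mosaic eye/antennal discs and lay well away from any peak called in discs that overexpressed *ab* alone. A peak was taken as isolated where it was at least 40 bp long and no *ab* peak overlapped it or came within 500 bp of its edges. The regions were thus chosen by the lengths of the *scrib1*+*ab* peaks and their distances to the *ab* peaks, and both measures are given below as a description only. Of the 10892 peaks in the *scrib1*+*ab* list, 8354 were at least 40 bp long, and 1576 of these were isolated. This is 18.9% of the peaks of that length (exact 95% interval 18 to 19.7%) and 14.5% of the whole list, and these shares are the background for every count of isolated peaks below.

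Abrupt (Ab) is a transcription factor of the BTB-zinc finger family. It is known for its part in the shape of dendrites, the attachment of muscles and the timing of cell migration in the ovary. Scribbled (Scrib) is a scaffold protein of the basolateral cell cortex that keeps epithelial cells polarised, and cells that lose it lose their polarity and can overgrow. ChIP-Seq finds the places on chromatin where a protein sits by pulling it down with an antibody and sequencing the DNA that comes with it, and a peak is a stretch where the pull-down exceeds its input.

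Both genotypes carried MARCM clones, in which *ey-FLP* induces recombination at FRT82B in the developing eye/antennal disc and *Tub-GAL4* then drives transgenes in the clone cells alone. In the first genotype the clones expressed *UAS-ab55*, and in the second they expressed *ab* and were also homozygous for the *scrib1* allele carried on FRT82B. Each disc was a mosaic, so that chromatin of the cells outside the clones was part of both libraries, and a larger share of clone cells and more binding in each cell cannot be told apart. Chromatin was cross-linked in 1.8% formaldehyde, sheared to about 500 bp and pulled down with a rabbit polyclonal anti-Ab antibody, with about 100 discs in each pull-down and 3 to 6 pull-downs pooled into a library. Each genotype had 1 such library and 1 input, hence no value has a replicate error, and every difference below is one between these libraries. The *ab* list held 8881 peaks. The lists give no reads, so the depth behind a peak is unknown here, and whether the *ab* library had reads at an isolated region short of a call was not analysed.

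The 1576 isolated peaks were mostly short. Their lengths had a median of 66 bp and quartiles of 52 and 87 bp, 630 (40%) were under 60 bp, 276 (17.5%) reached 100 bp and 24 (1.52%) reached 200 bp. Together they covered 121 kb. The 5597 *scrib1*+*ab* peaks of at least 40 bp that overlapped an *ab* peak had a median length of 105 bp (69 to 176 bp), and 1093 of them (19.5%) reached 200 bp. The remaining 1181 peaks lay within 500 bp of an *ab* peak without overlapping it. These were as short as the isolated ones, with a median of 66 bp and 202 (17.1%) of at least 100 bp, so the difference in length lay between overlap and no overlap, on either side of the 500 bp limit alike. With the lists exchanged, 1935 of the 8646 *ab* peaks of at least 40 bp (22.4%) were isolated from the *scrib1*+*ab* list. Isolated *ab* peaks were longer, with a median of 111 bp (72 to 170 bp) against 197 bp (124 to 315 bp) for the *ab* peaks that overlapped, so peaks without a partner were the shorter ones in each list.

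**Figure D1:**
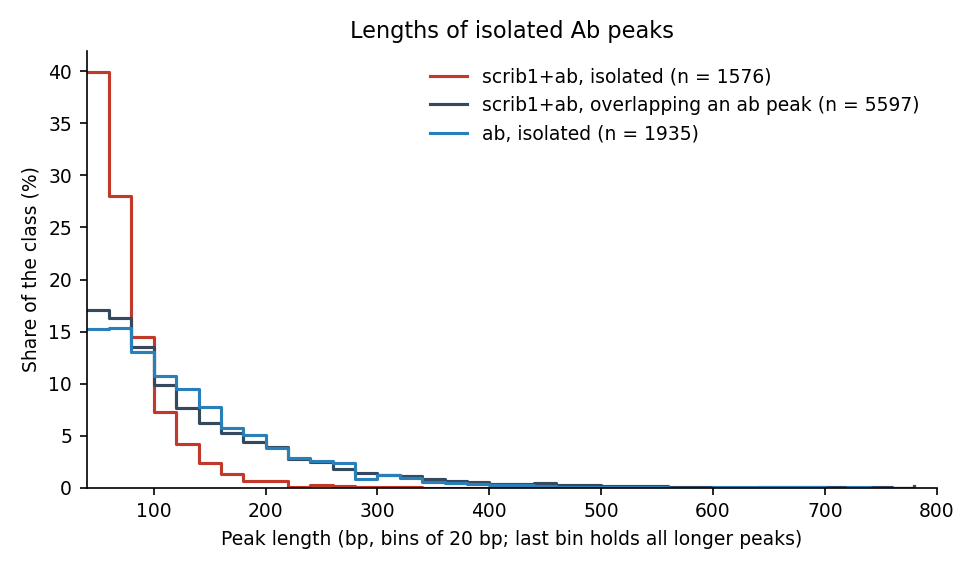
Share of peaks (%) by length in bins of 20 bp for isolated *scrib1*+*ab* peaks (red, n = 1576), *scrib1*+*ab* peaks that overlap an *ab* peak (dark, n = 5597) and isolated *ab* peaks (blue, n = 1935), all of at least 40 bp. The red line is highest in the shortest bin, which holds 40% of the isolated peaks, and it lies under both other lines in each bin from 100 to 300 bp.

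The share of *scrib1*+*ab* peaks that were isolated fell with length in every step. It was 30.6% at 40 to 59 bp (630 of 2058 peaks), 26.4% at 60 to 79 bp, 19.4% at 80 to 99 bp, 13.3% at 100 to 149 bp and 6.23% at 150 to 199 bp. At 200 to 299 bp it was 2.62% (19 of 726), and of 406 peaks of at least 300 bp, 5 were isolated (1.23%, interval 0.401 to 2.85%). The *ab* list showed the same order, with 41.5% isolated at 40 to 59 bp and 6.28% at 300 bp or more, but its long peaks were more often isolated than the long *scrib1*+*ab* peaks. Below the minimum length, 1124 of the 2538 *scrib1*+*ab* peaks (44.3%) were more than 500 bp from any *ab* peak, and these were not counted.

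The deposited lists do not follow position within an arm. Longer peaks stand nearer the start, and where a peak is listed is therefore given as a further description. Isolated peaks had a median place 55.2% of the way down their arm's list (interquartile range 40.4 to 71.3%), against 28.5% for overlapping peaks. With each arm's list cut into 10 equal parts, 7 of 1090 peaks were isolated in the first (0.642%), and the share rose from each to the next, up to 40.7% in the last (99 of 243). At matched length isolated peaks still stood later. At 40 to 59 bp the median place was 67.9% for isolated and 61.8% for overlapping peaks, at 80 to 99 bp it was 42.7% and 35.7%, and at 150 to 199 bp it was 19.9% and 14.2%, and the order was the same in each of the 7 length classes. How the authors' software ordered the lists is not given in the sources used here.

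**Figure D2:**
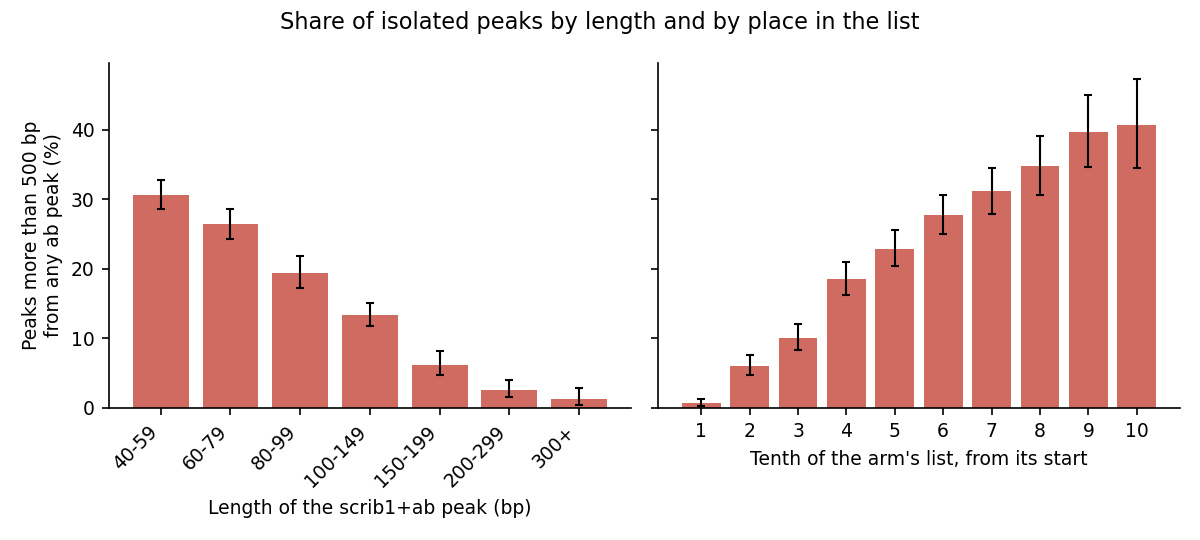
Share of *scrib1*+*ab* peaks of at least 40 bp that were isolated (%), by length in bp (left) and by 10 equal parts of the arm's list from its start (right), with bars for exact 95% intervals that cover counting error only. The share fell from 30.6% in the shortest class to 1.23% in the longest, and rose from 0.642% in the first part of the list to 40.7% in the last.

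The 10 longest isolated peaks ran from 256 to 1122 bp. Positions are on dm3 (BDGP Release 5) and counted from 1. The longest, at 2R 995728 to 996849, was 12843 bp from the nearest *ab* peak, and it was followed after 61 bp by the third longest, at 2R 996911 to 997245 (335 bp). The second longest was at 2L 14553799 to 14554327 (529 bp, 3140 bp from an *ab* peak), and at place 63 of 1934 it stood at the top of all isolated peaks on its arm. The next were at 3L 18175349 to 18175652 (304 bp, 3025 bp from an *ab* peak, in an intron of *W* as described below), 3L 11342804 to 11343104 (301 bp, 5676 bp) and 2R 432082 to 432373 (292 bp, 27943 bp). Of the same length, 277 bp, were 2L 9907386 to 9907662 (12405 bp away) and X 2358737 to 2359013 (813 bp away). The list closed with 3L 13212413 to 13212687 (275 bp, 663 bp away) and 3R 16137012 to 16137267 (256 bp, 1515 bp away). Of these 10 peaks, 6 had a further *scrib1*+*ab* peak within 500 bp, against 436 of all 1576 isolated peaks (27.7%). The longest peak of all held place 253 of 1956 on its arm, far behind its rank by length.

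Isolated peaks lay on all 5 major arms in nearly equal density. There were 368 on 3R (23.4%, interval 21.3 to 25.5%), 322 on 3L (20.4%), 314 on 2L (19.9%), 291 on 2R (18.5%) and 281 on X (17.8%). Over the span that the *scrib1*+*ab* list covers on each arm this gave 13.8 isolated peaks per Mb on 2R, 13.7 on 2L, 13.2 on 3R, 13.1 on 3L and 12.6 on X. Of the peaks of at least 40 bp, the isolated ones made up 20.5% on 2L (18.5 to 22.6%), 18.7% on 2R, 18.6% on 3R, 18.5% on 3L and 18.1% on X (16.2 to 20.1%), and all of these intervals overlap. Arm 3R, which carries *scrib* itself and is the arm made homozygous in the clones, thus had a share close to the 18.9% of all peaks. The median lengths by arm ran from 64 to 68.5 bp. Isolated *ab* peaks were less even, from 13.6 per Mb on 3R to 18.3 per Mb on X, and the number of isolated *scrib1*+*ab* peaks for each isolated *ab* peak ran from 0.687 on X to 0.974 on 3R.

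Along the arms, isolated peaks were found in each of the 121 windows of 1 Mb that held any *scrib1*+*ab* peak of at least 40 bp. In the 117 windows with at least 20 such peaks, the isolated share ran from 8.42% (8 of 95, X 7000001 to 8000000) to 70% (14 of 20, 2L 22000001 to 23000000), with a median of 19%. The next highest were 64.3% at 2R 1 to 1000000 (18 of 28) and 42.9% at X 21000001 to 22000000 (15 of 35), and all 3 lie at the end of the arm that joins the centromere. The *ab* list held 8 peaks in this window of 2L, 7 in that of 2R and 21 in that of X. In the window with the lowest share it held 115. Since isolation is set by distance to the *ab* list, the rule favours a higher share where *ab* peaks are few. In the 2 Mb next to the centromere, counted from the outermost *scrib1*+*ab* peak, 114 of 349 peaks were isolated over all arms (32.7%, interval 27.8 to 37.9%), against 1462 of 8005 elsewhere (18.3%, 17.4 to 19.1%). The share was higher next to the centromere on 2R (45.9% against 17.6%), X (45.1% against 17.2%) and 2L (34.1% against 19.7%), whose intervals do not overlap. These intervals count each peak as separate, although some isolated peaks lie close together. They can thus be too narrow, and they are no test of a difference. On 2L, however, 12 of the 31 isolated peaks in this stretch lay far beyond the last *ab* peak of the arm, where the rule makes any peak of this length isolated. They are also among the 114, and among the 14 of the window with the highest share. The 2L stretch held 91 peaks in all, and its share without these 12 was not computed. No rise on 2L apart from these 12 peaks is thus claimed. The intervals overlapped on 3L (29.4% against 18.3%) and on 3R (19.6% against 18.6%). In the *ab* list the same stretches gave 24.8% isolated (19.9 to 30.3%) against 22.3% elsewhere, but the arms differed. On X its share was also higher next to the centromere (41%, 25.6 to 57.9%, against 23.4%, 21.4 to 25.5%), whereas on 2L it was 14.3% (6.75 to 25.4%) against 23.5% (21.4 to 25.8%). These windows were described after their values had been seen, and they include the longest isolated peak and its neighbour. The window with most isolated peaks was 3R 4000001 to 5000000, with 27 of 99 peaks.

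**Figure D3:**
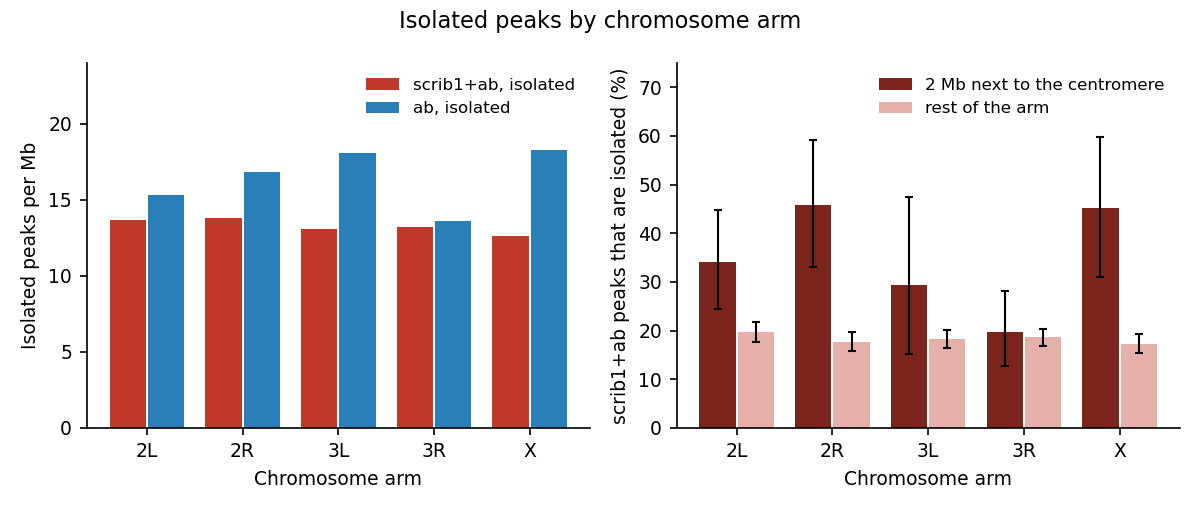
Left, isolated peaks per Mb on each arm for the *scrib1*+*ab* list (red) and the *ab* list (blue). Right, share of *scrib1*+*ab* peaks that were isolated (%) in the 2 Mb next to the centromere (dark) and in the rest of the arm (light), with exact 95% intervals. Red bars on the left lie between 12.6 and 13.8 per Mb. On the right the dark bar stands clear of the light one on 2L, 2R and X and not on 3L or 3R. The dark bar of 2L includes 12 peaks beyond the last *ab* peak of the arm, which the rule makes isolated.

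The 5 isolated peaks farthest from any *ab* peak were all on 2L, beyond the last *ab* peak of the arm, which ended at 22169260. They were at 22961041 to 22961101 (791780 bp away), 22960896 to 22960952 (791635 bp), 22737324 to 22737379 (568063 bp), 22737124 to 22737217 (567863 bp) and 22691096 to 22691137 (521835 bp). They were short, at 42 to 94 bp, and 4 of them formed close pairs, with 88 and 106 bp between the peaks of a pair. In all, 12 *scrib1*+*ab* peaks lay beyond the last *ab* peak on 2L, with lengths of 42 to 121 bp and places from 607 to 1900 of 1934. All 12 were isolated, which the rule fixes for peaks of this length so far beyond the *ab* list. One further isolated peak lay beyond the last *ab* peak on 3L (24535602 to 24535679, 5154 bp away) and one before the first on X (11766 to 11816, 8467 bp away). On 2R and 3R the isolated peaks lay within the span of the *ab* list. Of the 20 isolated peaks more than 100 kb from an *ab* peak, 13 were on 2L, 3 on 3L, 3 on X, 1 on 2R and none on 3R.

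For most isolated peaks the nearest *ab* peak was a few kb away. The median distance was 3390 bp (interquartile range 1246 to 9331 bp), and 310 isolated peaks (19.7%) had an *ab* peak within 1000 bp, a further 259 (16.4%) within 2000 bp, 371 (23.5%) within 5000 bp and 262 (16.6%) within 10000 bp. Another 322 (20.4%) were 10 to 50 kb away, and 52 (3.3%) more than 50 kb. Isolated *ab* peaks stood at much the same distance from the *scrib1*+*ab* list, with a median of 3285 bp (1206 to 8515 bp). The length of isolated peaks hardly changed with this distance, with a median of 67 bp where an *ab* peak was within 2000 bp (n = 569), 65 bp from there to 10000 bp (n = 633) and 65 bp beyond (n = 374). The nearest *ab* peak was itself isolated, and at least 40 bp long, for 384 of the 1576 (24.4%). In the whole *ab* list such peaks were 1935 of 8881, and 23.3% of *ab* peaks were more than 500 bp from the *scrib1*+*ab* list when any length counted. An isolated *ab* peak lay within 2000 bp of 124 isolated *scrib1*+*ab* peaks (7.87%).

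At the limit of the gap, the 3 peaks just inside were at X 11901680 to 11901760 (gap 501 bp), 3L 17993218 to 17993284 (502 bp, at *Eip75B*) and 3R 14298630 to 14298671 (502 bp, at *fru*). The 3 just outside, each at a gap of 500 bp, were at 2R 3034602 to 3034643, 3L 21004866 to 21004959 and X 5620139 to 5620183. There were 49 peaks up to 50 bp over the limit of the gap and 50 in the 50 bp up to it, so the numbers on either side of this limit were alike. On either side of the length limit they were not. Of the isolated peaks, 29 were exactly 40 bp long, whereas 324 peaks of 39 bp met the rule in all but length, and 156 were of 40 to 44 bp against 619 of 35 to 39 bp.

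The median distance from an isolated peak to the next *scrib1*+*ab* peak of any kind was 1448 bp (407 to 5849 bp). Since the rule allows gaps of 500 bp or less to this list alone, it favours a shorter distance than to the *ab* list, and 1000 of the 1576 (63.5%, interval 61 to 65.8%) were nearer to such a peak than to any *ab* peak. With the lists exchanged the order was the same, as isolated *ab* peaks were a median of 1369 bp from the next *ab* peak and 3285 bp from the next *scrib1*+*ab* peak. The smallest gap from an isolated peak to the next *scrib1*+*ab* peak was 41 bp, the same as for overlapping peaks. Peaks were called with a maximum gap setting of 40 bp in the study, which bears on this floor in both classes. For 521 isolated peaks (33.1%) the nearest *scrib1*+*ab* peak was itself isolated, and 178 (11.3%) had a *scrib1*+*ab* peak under 40 bp within 500 bp. The rule raises the first of these shares, since it keeps peaks that overlap an *ab* peak at a distance. Only 5 isolated peaks (0.317%) had one of those within 500 bp. Overlapping peaks stood in closer company, with a median of 180 bp to the next *scrib1*+*ab* peak.

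**Figure D4:**
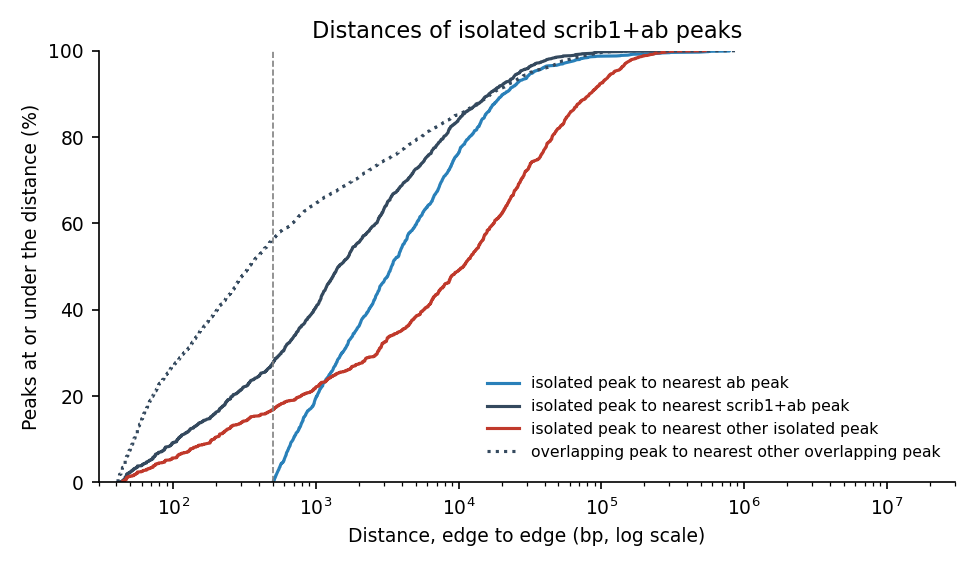
Cumulative share of peaks (%) by distance in bp on a log scale, from isolated *scrib1*+*ab* peaks to the nearest *ab* peak (blue), *scrib1*+*ab* peak (dark) and other isolated peak (red), with overlapping peaks to the nearest other overlapping peak for comparison (dotted). The dashed line marks the 500 bp of the rule. The medians are 3390, 1448 and 10845 bp for the isolated peaks and 342 bp for the overlapping ones.

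The isolated peaks were spaced unevenly. Spread over the arms there was one for every 75.4 kb on average, and the median distance to the nearest other isolated peak was 10.8 kb. These measures are unlike, since the second takes the closer side and would be the smaller one at random placement too. Of the 1576 isolated peaks, 773 (49%, interval 46.6 to 51.5%) had another within 10 kb. This share was lower than for isolated *ab* peaks among themselves (55.3%, 53 to 57.5%, median distance 6945 bp) and for overlapping peaks among themselves (85.2%, 84.2 to 86.1%), which are also more numerous. By arm this share was 55.1% on 2L, 51.9% on 3L, 48.8% on 2R, 48.6% on 3R and 39.9% on X. Within 500 bp of each other lay 265 isolated peaks (16.8%), in 127 groups, which leaves 1438 separate regions. The largest such group held 4 peaks of 56 to 90 bp, at X 9825967 to 9826679, with the nearest *ab* peak 593 bp away. Isolated peaks with another within 500 bp were somewhat longer than the 803 with none within 10 kb. The first had a median of 71 bp and 24.5% of at least 100 bp, against 63 bp and 14.8% for the 803. No random placement of peaks was made, and the unevenness of all *scrib1*+*ab* peaks along the arms is part of these figures.

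When isolated peaks were chained at gaps of 10 kb or less they formed 1116 stretches. Of these, 803 were single peaks, 228 held 2, 49 held 3, 19 held 4 and 12 held 5, and the 5 largest held 6 or 8. A stretch on 2L from 15337356 to 15358633 held 8 isolated peaks within 21.3 kb, and no *ab* peak at all. Its peaks stood in 4 clumps, of 88 and 89 bp, of 49, 107 and 172 bp, of 66 and 65 bp, and 1 alone of 62 bp, and they were 3256 to 14248 bp from the nearest *ab* peak. The ninth *scrib1*+*ab* peak listed in this stretch was under 40 bp. The other stretch of 8, on 3L from 20510585 to 20548730 (38.1 kb), was different in kind, since 8 *ab* peaks and 9 further *scrib1*+*ab* peaks were interspersed. Its 8 isolated peaks were 43 to 111 bp long and 805 to 10127 bp from an *ab* peak.

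The 3 stretches of 6 tied for the third place. At 2R 14111559 to 14125285 the 6 peaks were 43 to 178 bp long and close to *ab* peaks, with gaps of 503, 613, 634, 651, 787 and 2077 bp. At X 8787737 to 8801715 they were 46 to 70 bp long, with 3 near an *ab* peak (542, 907 and 1505 bp) and 3 far from one (9406, 10882 and 11026 bp). At X 18143821 to 18165171 they were the longest of these sets, at 83, 86, 105, 127, 177 and 183 bp, among 10 *ab* peaks. Thus the stretch at 2L 15337356 was the only one of these 5 without an *ab* peak, and the other 4 held 4 to 10.

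Genes could be placed on dm3 for the 70 genes of the study with a browser panel, and the panels held 62 isolated peaks, or 3.93% of them. Of the 474 *scrib1*+*ab* peaks of at least 40 bp in the panels, the isolated ones made up 13.1% (interval 10.2 to 16.5%), below the 18.9% of all peaks. The panels were drawn for genes that the study had chosen with these data, so this share describes those genes alone. In 20 of the 70 genes (28.6%) at least 1 isolated peak lay in an intron or within 500 bp upstream of a start site, and 14 of them held 2 or more. Of the 62 peaks, 49 were in introns, 2 of which also reached into an exon, 2 lay upstream of one start and in the intron of longer transcripts, 5 were in exons only and 6 lay outside the gene as drawn. One pixel of a panel stands for a median of 17.5 bp and at most 128 bp, which limits every statement about an edge.

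Among the epigenetic and BTB genes, 5 of 15 held an isolated peak in an intron or just upstream of a start, and the panels of this group held 19 among 180 *scrib1*+*ab* peaks (10.6%). *chinmo*, which encodes a BTB-zinc finger protein that marks the early identity of neurons and stem cells, held more than any other panel gene, with 7 of its 18 *scrib1*+*ab* peaks of at least 40 bp isolated. One of them, at 2L 1653406 to 1653464 (59 bp), was in an exon. The others were intronic. A single peak lay at 1672133 to 1672205 (73 bp, 3208 bp from an *ab* peak). Then came 3 close together, at 1688036 to 1688130 (95 bp), 1688320 to 1688460 (141 bp) and 1688794 to 1688846 (53 bp), with gaps to the nearest *ab* peak of 1270, 940 and 554 bp. The last 2 were at 1691178 to 1691308 (131 bp) and 1691369 to 1691408 (40 bp), 60 bp apart, with gaps of 1450 and 1641 bp. These 5 peaks thus flanked, on either side, a site at which peaks were called in both lists.

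*fru*, the BTB-zinc finger gene of male courtship behaviour, held 5 isolated peaks of 26, at 42 to 70 bp all of them short. Their positions on 3R were 14253717 to 14253770 (54 bp), 14254780 to 14254849 (70 bp), 14265130 to 14265187 (58 bp), 14292709 to 14292765 (57 bp) and 14298630 to 14298671 (42 bp). The first 2 were farthest from the *ab* list, at 15165 and 16228 bp. The third was upstream of the start of one short transcript and in an intron of the long ones, 7679 bp from an *ab* peak, and the last was at the limit of the rule, at 502 bp. *mod(mdg4)*, which encodes a family of BTB proteins of insulators and chromatin, had 3 *scrib1*+*ab* peaks of at least 40 bp in its panel, and all 3 were isolated, at 3R 17185413 to 17185458 (46 bp), 17199213 to 17199254 (42 bp) and 17200294 to 17200378 (85 bp). Its one *ab* peak was isolated as well. *mamo*, a BTB-zinc finger gene needed in the female germline, held 2 far apart, at X 13783555 to 13783629 (75 bp, gap 516 bp) and X 13837604 to 13837729 (126 bp, gap 3853 bp). *psq*, a BTB gene of the pipsqueak DNA-binding family, held 1 of 44 bp (2R 6487089 to 6487132, gap 1117 bp) among 39 *scrib1*+*ab* peaks, 32 of which overlapped an *ab* peak. *Pcl*, a Polycomb group gene, had 1 peak in its panel, an isolated one of 41 bp in an exon, and no *ab* peak.

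In the ecdysone response group, 3 of 11 genes held an isolated peak in an intron or just upstream of a start, and the panels held 11 among 80 *scrib1*+*ab* peaks (13.8%). *Eip75B*, a nuclear receptor gene induced early by the hormone, held 4 of its 27. A pair at 3L 18039925 to 18040008 (84 bp) and 18040350 to 18040478 (129 bp) lay in an intron, 8631 and 9056 bp from an *ab* peak, and at place 313 of 2228 the second was one of the earlier isolated peaks of its arm. The other pair, at 17988585 to 17988632 (48 bp) and 17993218 to 17993284 (67 bp), lay 3351 and 502 bp from an *ab* peak, the latter just upstream of an inner start site. *br*, the Broad complex of BTB-zinc finger proteins that drive the passage to the pupa, held 3 of its 16, at X 1508620 to 1508675 (56 bp), 1509573 to 1509736 (164 bp) and 1535951 to 1536023 (73 bp). The first 2 were 897 bp apart and 983 and 1027 bp from an *ab* peak, in a stretch where *Mur2B*, a mucin-related gene, is drawn as well. The third was 18381 bp from any *ab* peak. *ftz-f1*, a nuclear receptor gene of the time between hormone pulses, held 2, at 3L 18778212 to 18778282 (71 bp, gap 1407 bp) and 18784184 to 18784307 (124 bp, gap 4357 bp), both in introns. At *E23*, an ABC transporter gene that limits the ecdysone response, an isolated peak of 166 bp (2L 3354714 to 3354879, gap 7811 bp) fell in a drawn exon. In the panel of *Blimp-1*, a gene of a transcriptional repressor, the one isolated peak was at 3L 5648115 to 5648337 (223 bp, gap 20465 bp). It lay 24.1 kb downstream of the start, in the neighbouring *lin-28*, an RNA-binding protein gene, and the panel held 13 *ab* peaks.

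Of the 9 Notch pathway genes, 3 held isolated peaks, 6 in all among 60 *scrib1*+*ab* peaks (10%). The receptor gene *N* held 2 of 18, at X 3046458 to 3046517 (60 bp, gap 601 bp) and 3048285 to 3048378 (94 bp, gap 2428 bp), both in an intron. *mam*, the co-activator of the receptor's intracellular domain, held 3 of 16, at 2R 9879292 to 9879367 (76 bp, gap 537 bp), 9923221 to 9923286 (66 bp, gap 1807 bp) and 9931879 to 9931961 (83 bp, gap 6667 bp). The ligand gene *Dl* held 1 of 14, at 3R 15151165 to 15151270 (106 bp), over the edge of an exon and 541 bp from an *ab* peak. The panels of *HLHm3*, *HLHmβ*, *m2* and *mα*, of the E(spl) complex, held none. They had only 2, 4, 2 and 2 *scrib1*+*ab* peaks of at least 40 bp, too few to read this as an absence.

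Of the 22 cell fate genes, 5 held one or more in an intron, and the panels of the group held 18 among 97 *scrib1*+*ab* peaks (18.6%). *hth*, the TALE homeobox gene that keeps eye progenitors undifferentiated, held 4 of 30, at 3R 6370172 to 6370219 (48 bp), 6393435 to 6393513 (79 bp), 6419838 to 6419977 (140 bp) and 6424862 to 6424905 (44 bp), with gaps to the *ab* list of 6580, 4030, 734 and 514 bp. The Hox gene *lab* held 3 of 9 in introns, at 3R 2492531 to 2492596 (66 bp, gap 2090 bp), 2499864 to 2499938 (75 bp, gap 1201 bp) and 2501687 to 2501800 (114 bp, gap 2416 bp). The Hox gene *Antp* held 2 of 7, of which the one at 3R 2817483 to 2817551 (69 bp) was 45596 bp from any *ab* peak, the farthest of all 62, and the other, at 2756439 to 2756483 (45 bp), 7297 bp. *da*, the bHLH partner of the proneural proteins, had 2 *scrib1*+*ab* peaks in its panel, at 2L 10388458 to 10388586 (129 bp) and 10388785 to 10388846 (62 bp). Both were isolated, 198 bp apart in or at the edge of its intron, with no *ab* peak nearer than 7408 bp. *Optix*, a homeobox gene of eye and forebrain patterning, had 2 as well, both isolated, one intronic (2R 3922806 to 3922862, 57 bp) and one 2.13 kb upstream of its start (2R 3916996 to 3917043, 48 bp). At *odd*, a zinc finger gene of disc patterning, a peak of 50 bp (2L 3606534 to 3606583, gap 12063 bp) was exonic. Single isolated peaks lay outside *bowl*, *drm*, *salm* and *toe*, transcription factor genes of leg and eye patterning, at 45 to 105 bp in length and 1152 to 2718 bp from an *ab* peak.

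Among the 13 genes of growth, death and invasion, 4 held isolated peaks, 8 in all among 57 *scrib1*+*ab* peaks (14%). *wts*, the kinase gene of the Hippo growth control pathway, came after *chinmo* and level with *fru* in number, with 5 of its 8 *scrib1*+*ab* peaks isolated in its panel. These were at 3R 26622649 to 26622692 (44 bp), 26626239 to 26626345 (107 bp, in an exon), 26629035 to 26629086 (52 bp), 26629861 to 26629909 (49 bp) and 26630038 to 26630156 (119 bp), with gaps to the nearest *ab* peak of 1670, 5260, 2568, 1745 and 1498 bp. The gene had 2 *ab* peaks, neither of them isolated, and its 2 overlapping *scrib1*+*ab* peaks lay outside the stretch that held the 5. *W* (*hid*), the activator of cell death that blocks the caspase inhibitor Diap1, held 1 of 6 in an intron, the peak of 304 bp at 3L 18175349 to 18175652 described above. At place 133 of 2228 it stood earliest in its list of all 62. *dm* (*Myc*), a growth regulator gene, held 1 of 4 (X 3277824 to 3277901, 78 bp, gap 660 bp), and *scaf*, a target gene of JNK signalling, 1 of 3 (2R 1570181 to 1570234, 54 bp, gap 5481 bp), both in introns.

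**Figure D5:**
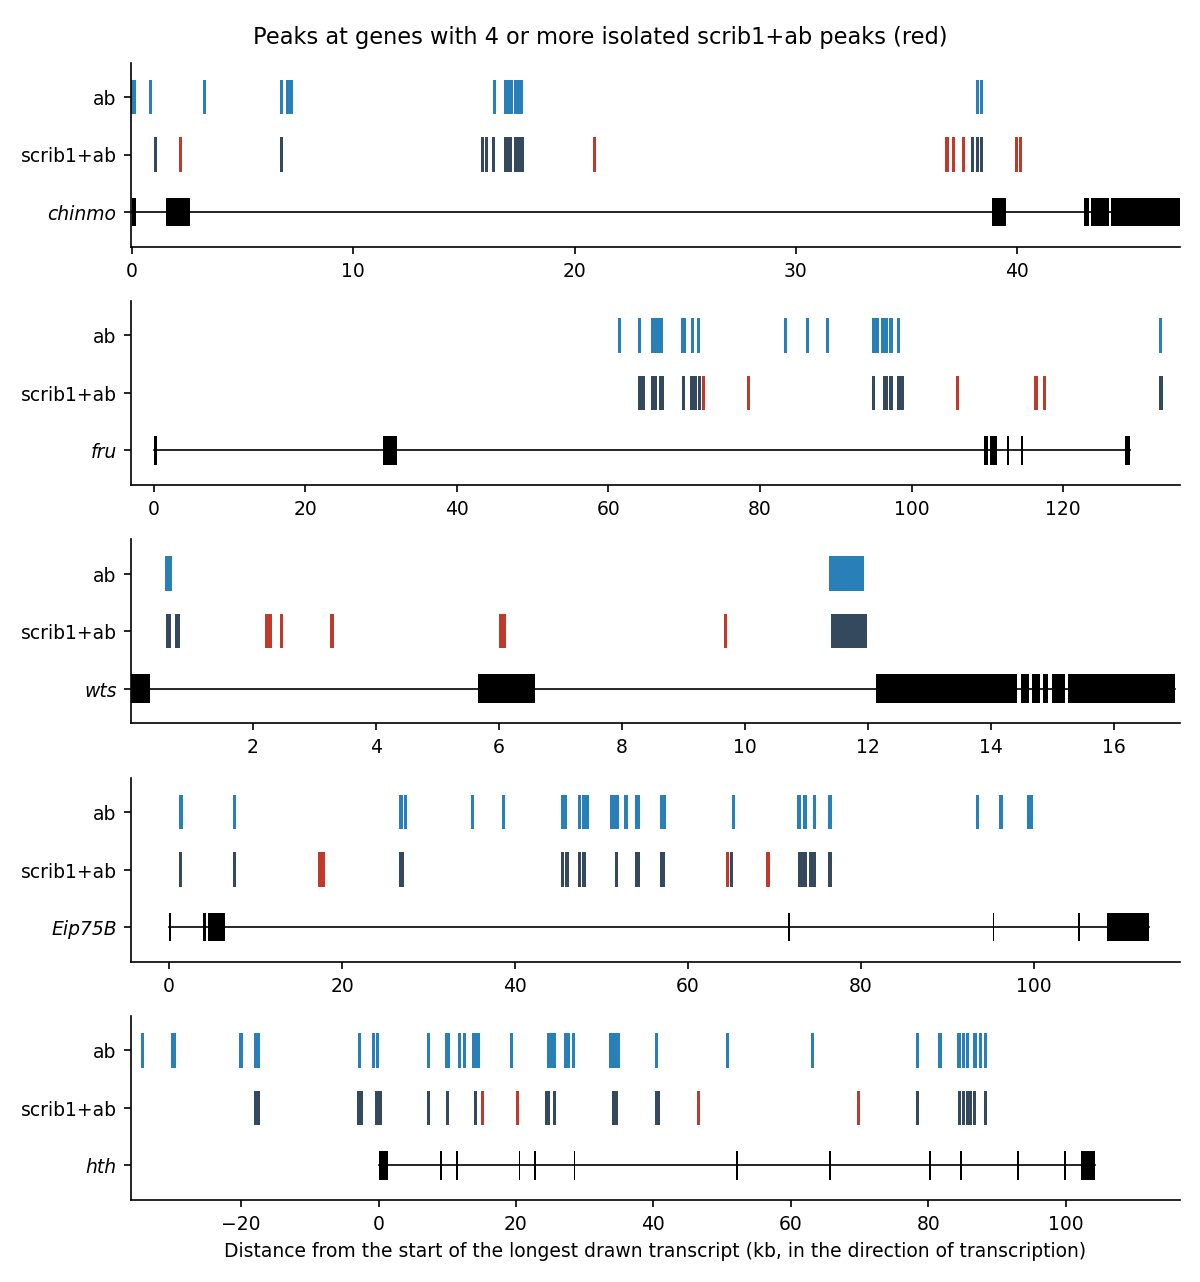
Ab peaks at the 5 panel genes with 4 or more isolated *scrib1*+*ab* peaks, by distance in kb from the start of the longest drawn transcript, which for *chinmo* and *wts* is the edge of the panel. Marks are *ab* peaks (blue), *scrib1*+*ab* peaks of at least 40 bp that are isolated (red) or not (dark), and exons of that transcript (black), with short peaks widened to stay visible. At *wts* the 5 red marks lie between the 2 *ab* peaks, and at *chinmo* 5 of the 7 flank a site with peaks in both lists.

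The 62 peaks in the panels had a median length of 69.5 bp and a median gap of 2498 bp to the *ab* list, against 66 bp and 3390 bp for all 1576. At *da*, *odd* and *Pcl* the panel held no *ab* peak at all, and in 9 of the 28 panels with an isolated *scrib1*+*ab* peak there was no isolated *ab* peak. Isolated *ab* peaks were found in 35 of the 70 panels, 83 in all.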

How the data were processed

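Chromatin of *ab* and *scrib1*+*ab* mosaic discs was immunoprecipitated with anti-Ab antibody, 1 library per genotype beside an input. Per the submitters' processing notes reads were aligned with Bowtie to dm3, and per the study's methods peaks were called against input with PeakSeq. The deposited peak lists hold coordinates and a score that is 1 for every peak, with no height or p-value, so the precision of a single peak is unknown. Peaks were placed by half-open coordinates, gaps were counted in bases between edges, and peaks at a gap of 0 were not counted as overlapping. Shares have exact Clopper-Pearson 95% intervals, which cover counting error only, and no test was made between the libraries. Gene models of 70 genes were read from the study's browser panels, with a ruler fit within 0.978 pixels. A start region was 500 bp upstream of a drawn start. Regions named in the text were the 10 longest peaks, the 5 farthest from the *ab* list, the stretches with most peaks with ties, those at the limits of the rule, and those in introns or start regions of panel genes. Panel peaks in exons or outside the gene were named after their values were seen, and *ImpL2* was not analysed here. The members and lists were chosen with earlier results of these data known. Alternatives changed the gap, the minimum length, the *ab* peaks used, the window and the gene regions. Read tracks, inputs and expression arrays were not analysed here. Scripts were tested on simulated data and used Python 3.11.15, NumPy 2.4.6, pandas 2.3.3, SciPy 1.17.1, Matplotlib 3.10.9 and Pillow 12.0.0.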

Additional observations from a re-analysis of the deposited data

How the results depend on the processing

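The number of isolated peaks depended on the rule. It was 2757 with any peak that did not overlap, 1007 at gaps over 2000 bp, 2700 without a minimum length, 946 from 60 bp and 276 from 100 bp. When only *ab* peaks of at least their median length counted it was 3008. At gaps over 250 bp or 1000 bp it was 1927 or 1266, within 1.5 times the 1576 reported. The share on 3R, 23.4% as reported, was 26.3% without a minimum length and 19.6% from 100 bp, and the median length was then 46 bp and 125 bp. The share with another isolated peak within 10 kb, 49% as reported, was 66.6% without the gap, 39.6% at gaps over 2000 bp, 61.4% without a minimum length and 23.2% from 100 bp. Within 5 kb it was 38.4% and within 20 kb 62.2%. The median distance to the *ab* list was 762 bp without the gap, 7226 bp at gaps over 2000 bp and 3134 bp from 100 bp. The number of panel genes, 20 as reported, was 33 without the gap and 11 from 100 bp, and stayed at 20 when the models were moved by 1 pixel either way. In all, 21 of 38 alternatives moved a value, most of them by taking in or leaving out peaks. What counted as a move differed between results. A count of 1927 against 1576 was not a move, while a median distance of 3134 bp against 3390 bp was. The 5 kb window could only lower the share within 10 kb, and the 20 kb window could only raise it. The tally is hence no measure of stability. The alternative that used GAGAG motifs was not run, since no genome of this build was used here. No paired analysis was possible because each genotype had 1 library and no test was made. The lists do not give depth at single peaks, while the read totals in the study's methods were nearly equal for both ChIP libraries. Without replicates, the share of isolated peaks that a second library of the same genotype would give is unknown.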
